A study of Danio rerio with 20 samples.

Results

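Larvae exposed to the October extract of treated wastewater were compared directly with larvae exposed to the June extract. The comparison used 10 of the 20 libraries of the study, chosen by their titles: 5 libraries titled SEC OCT20 and 5 titled SEC JUN20. Every library came from 10 pooled whole larvae of wild-type zebrafish, Danio rerio, taken 5 days after fertilisation. From day 4 to day 5 they stayed in water with a secondary effluent extract (SEC) of a wastewater treatment plant, at a final strength of 20x. Secondary effluent is the water that leaves a plant after biological treatment. SEC JUN20 and SEC OCT20 received the extract of the sampling campaign labelled JUN20 or OCT20. Each campaign also had 5 control libraries of unexposed larvae of the same stage, titled CTRL JUN20 and CTRL OCT20. The labels do not say whether the pools of a group came from separate spawns, so the p-values measure the spread between pools, which may be technical. The 2 campaigns also differ in everything else that changed between their experiments, and within the exposed larvae the extract and the rest of the campaign cannot be told apart. The October-June change of the controls is therefore set beside that of the exposed larvae for the lists described and for many of the named genes.

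Organic extracts of effluent hold mixtures of drugs, pesticides, hormones and combustion products. Fish larvae meet such compounds first at the skin, gills and gut. They respond through receptors such as the aryl hydrocarbon receptor, the pregnane X receptor and the estrogen receptors, and through the transcription factor Nrf2. Between them these switch on cytochrome P450 enzymes, conjugating enzymes and efflux transporters. Zebrafish tissues also hold clocks that light sets directly and heat shock genes whose transcripts follow temperature and protein damage.

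The June libraries held 35324850 to 59922353 counts and the October libraries 32745188 to 45439387. All 22 markers checked for tissues other than ovary, from lens and retina to muscle, liver, pancreas, gut, skin and blood, were at 1 CPM (counts scaled to library size) or more in every exposed library, and the egg-coat gene zp2.1 was at 0. The 2 mitochondrial ribosomal RNAs took 1.98 to 2.52% of counts in the June libraries and 2.95 to 3.33% in the October libraries. The difference between the means was 0.879 percentage points, with an exact two-sided permutation p = 0.00794, the smallest p that 5 against 5 libraries can give. The part of this difference in the results below was not tested. In a principal component analysis of the 10 libraries, the first component held 27.8% of the variance and separated all June from all October libraries. The second component held 15.6% and set October replicates 4 and 5, at 22.9 and 18, apart from October replicates 1, 2 and 3, at -25.7 to -20.4, while the June libraries lay between 3.69 and 7.86. The counts of the lists described at length are also given below without October replicates 4 and 5 and without replicates 1, 2 and 3.

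**Figure D1:**
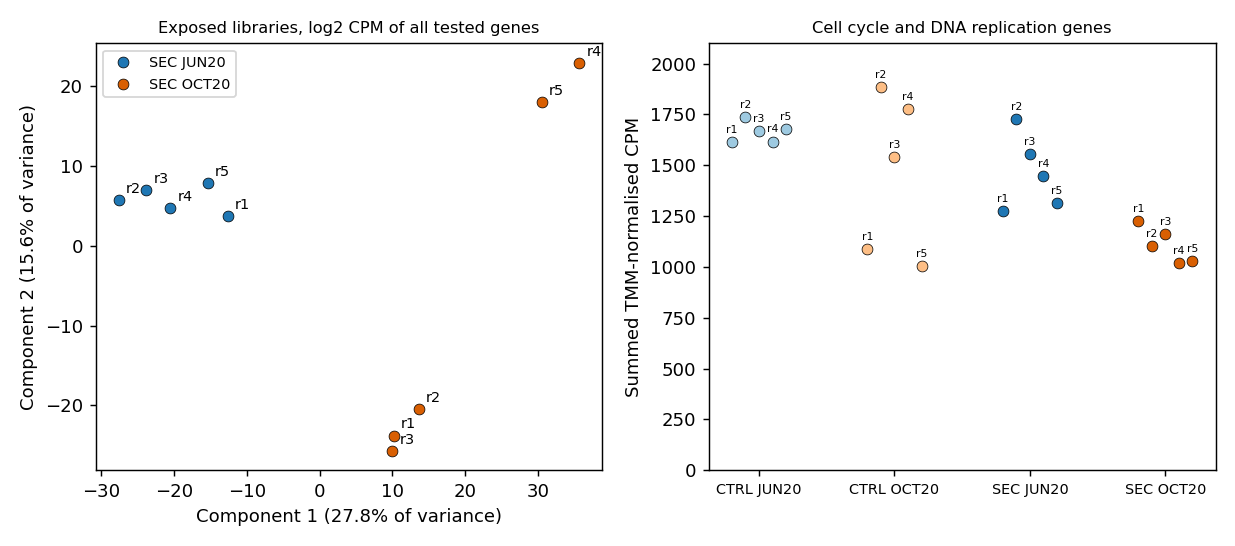
Left, the 10 exposed libraries on the first and second principal components of log2 CPM (axes with the share of variance), with replicate numbers. Right, the summed TMM-normalised CPM of the cell cycle and DNA replication genes in each of the 20 libraries, where SEC JUN20 lies between 1273 and 1729 and SEC OCT20 between 1018 and 1225. October replicates 4 and 5 stand apart on the second component.

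Of 23121 genes with enough counts, 2770 (12%) differed between October and June in exposed larvae at an adjusted p under 0.05, by edgeR's quasi-likelihood test with Benjamini-Hochberg adjustment over all genes. Of these, 1481 (6.41%) were higher and 1289 (5.58%) were lower in October. In 2735 genes (11.8%) the 5 October libraries did not overlap the 5 June libraries, with 1476 (6.38%) higher and 1259 (5.45%) lower in October. Most changes were small, with a median absolute log2 change of 0.31 among the called genes. At least 2-fold changes were called for 57 higher genes (0.247%) and 80 lower genes (0.346%). The split between higher and lower depended on the scaling, since with library totals alone in place of TMM factors 796 genes were called higher and 2771 lower, and the median of all genes moved from -0.01 to -0.07. Without October replicates 4 and 5 the count was 1039, with 613 higher and 426 lower, and 956 of these were among the 2770. Without October replicates 1, 2 and 3, an alternative chosen after seeing the data, it was 2153, with 1524 among the 2770.

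The controls differed between the campaigns as well. In them 1341 genes (5.8%) were called between October and June, 654 higher (2.83%) and 687 lower (2.97%). The exposed and the control contrast share no library, and 475 genes were called in both in the same direction, 252 higher and 223 lower. These are 17.1% of the genes called in exposed larvae and 35.4% of those called in controls, and 33 more were called in opposite directions. Called or not in controls, 2308 of the genes called in exposed larvae (83.3%) changed with the same sign there. The share with the same sign over all tested genes was not computed. The direct test of the difference between the exposed and the control contrast called 239 genes (1.03%), 182 with the higher value in exposed larvae (0.787%) and 57 with the lower one (0.247%). For most genes called in exposed larvae a difference from the controls is therefore not shown. Gene changes below are log2 changes of October relative to June from the edgeR fit, with standard errors (SE), and levels are TMM-normalised CPM. List counts in exposed larvae are to be read beside the 6.41% higher and 5.58% lower over all tested genes.

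Several transporter and enzyme genes had higher levels in October with no overlap between the groups. The efflux transporter gene abcc12 (ENSDARG00000013050) was at 68.6, 88.6, 55.3, 75.4 and 80.5 CPM in the 5 June libraries and at 185, 191, 169, 160 and 234 CPM in the 5 October libraries. All October libraries lay far above all June libraries. The log2 change was 1.35 (SE 0.11, edgeR adjusted p = 6.48e-07), while in controls it was 0.00, with levels of 21.8 to 28.1 CPM in all 10 control libraries. The difference between the contrasts passed the test with an adjusted p = 0.000128. The cytochrome P450 gene cyp2k18 (ENSDARG00000104593), of a family of monooxygenases that oxidise drugs and steroids, was at 78.7, 147, 51.4, 73.4 and 122 CPM in June and 376, 468, 402, 379 and 564 CPM in October. Its log2 change of 2.21 (SE 0.21, edgeR adjusted p = 6.60e-06) was the highest among the called genes with a mean of at least 1 CPM in the higher group and a gene symbol of its own. Control libraries held 5.92 to 8.36 CPM of cyp2k18, with a log2 change of 0.03, and the difference between the contrasts had an adjusted p = 0.00176. The monocarboxylate transporter family gave a pair. The slc16a6b level was 9.85, 9.12, 10.8, 9.83 and 15.3 CPM in June and 30.3, 34.9, 35.0, 37.8 and 57.0 CPM in October, and slc16a9b went from 9.19 to 14.5 CPM in June to 30.6 to 48.0 CPM in October. Neither pair of groups overlapped, and replicate 5 was the highest of its group for both genes in both campaigns. The log2 changes were 1.82 (SE 0.17) and 1.71 (SE 0.16), with edgeR adjusted p = 3.58e-06 and 2.91e-06, against 0.04 and 0.20 in controls.

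Smaller but tighter increases were seen for nat8l, which in mammals makes N-acetylaspartate. It was at 152, 144, 139, 146 and 149 CPM in June and 213, 211, 211, 218 and 241 CPM in October, a log2 change of 0.58 (SE 0.04) with the smallest p of the named genes (edgeR adjusted p = 2.18e-07). In controls nat8l was also called higher, by 0.24 (edgeR adjusted p = 0.0029). The antizyme gene oaz2b, whose product restrains polyamine synthesis, was at 10.96, 11.2, 13.2, 13.7 and 14.7 CPM in June and at 25.1, 23.3, 24.6, 27.3 and 27.9 CPM in October. Its log2 change was 1.0 (SE 0.08) against 0.38 in controls, and both contrasts passed the test. The anion exchanger slc4a2a rose by 0.78 (SE 0.06), the GABA transaminase abat by 0.56 (SE 0.05), the volume-regulated anion channel subunit lrrc8db by 0.77 (SE 0.07) and the lipocalin-type prostaglandin D synthase ptgdsb.2 by 0.64 (SE 0.07). In controls their changes were 0.23, 0.08, 0.24 and 0.14 in that order, and of them only that of slc4a2a passed the test. For each of the 6 genes from nat8l to ptgdsb.2 the difference from the control contrast passed the test, with adjusted p between 0.00197 and 0.0108. All 5 October libraries lay above all 5 June libraries for each of them.

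**Figure D2:**
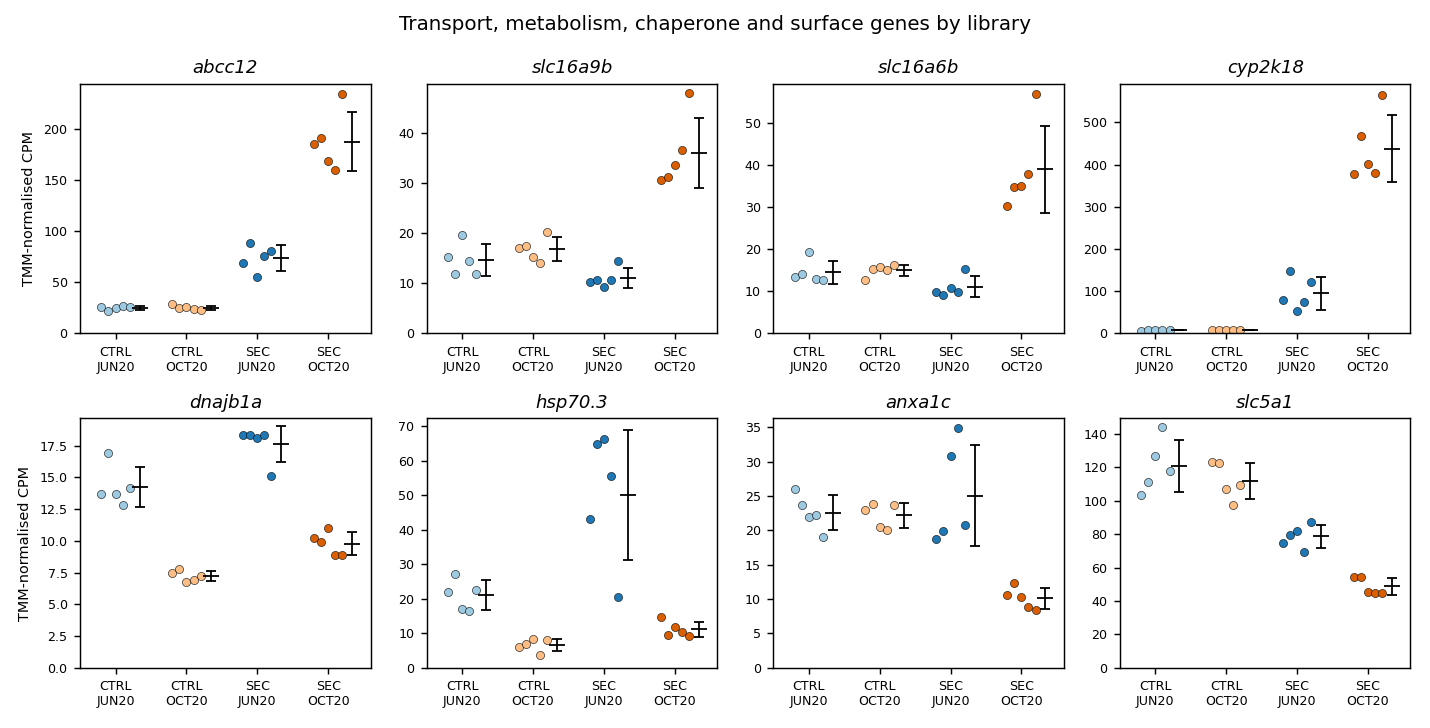
TMM-normalised CPM of 8 genes by library in the 4 groups of 5 libraries (points), with mean and SD (bars). In abcc12, slc16a9b, slc16a6b and cyp2k18 all SEC OCT20 points lie above all SEC JUN20 points, and in dnajb1a, hsp70.3, anxa1c and slc5a1 all lie below.

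Among 55 tested genes of xenobiotic metabolism outside the aryl hydrocarbon receptor list, 13 were higher and 5 lower in October, against 1 higher and 4 lower in controls. The median log2 change was 0.09, beside -0.01 for all genes. The P450 reductase porb, which passes electrons to every microsomal P450, was at 338, 361, 313, 335 and 391 CPM in June and 458, 460, 424, 407 and 453 CPM in October. The groups did not overlap, and the log2 change was 0.34 (SE 0.05, edgeR adjusted p = 0.000305) against -0.22 in controls, a difference with an adjusted p = 0.000312. Its paralog pora rose by 0.28, the epoxide hydrolase ephx1 by 0.38 and the P450 genes cyp2n13 by 0.39, cyp2ad6 by 0.49 and cyp2aa12 by 0.50. cyp3a65, a target of the pregnane X receptor in zebrafish, was at 1432 to 1798 CPM in June and 1753 to 2256 CPM in October. Its groups overlapped, and its change of 0.37 (SE 0.11, edgeR adjusted p = 0.0321) was lost on leaving out any of June replicates 1 to 4 or October replicates 1 or 2, with adjusted p up to 0.364 over all alternatives. Of the 5 lower genes, 4 encode cytosolic sulfotransferases, which conjugate phenols and steroids. The sult1st2 level was 12.5, 20.5, 18.9, 17.3 and 20.9 CPM in June and 9.75, 7.69, 6.59, 5.51 and 5.82 CPM in October, a log2 change of -1.36 (SE 0.20, edgeR adjusted p = 0.000302). Its change in controls was -0.38, and no difference between the contrasts was shown (edgeR adjusted p = 0.089). sult1st3 fell by 0.60, sult2st2 by 0.38 and sult1st6 by 0.37. Over the list, 6 genes differed between the contrasts with the higher value in exposed larvae and 0 with the lower one. Leaving out October replicates 4 and 5 gave 11 higher and 3 lower genes, and leaving out replicates 1, 2 and 3 gave 7 higher and 8 lower.

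Of 34 tested genes of the Nrf2 pathway and of glutathione synthesis, 12 were higher and 2 lower in October, with a median log2 change of 0.17, against 3 and 3 in controls with a median of -0.10. Leaving out replicates 4 and 5 of October gave 8 higher and 2 lower, and leaving out replicates 1, 2 and 3 gave 10 and 4. The pathway's own transcription factors were among them, since nfe2l2a rose by 0.28 (SE 0.05, edgeR adjusted p = 0.0012) and nfe2l2b by 0.74 (SE 0.13, edgeR adjusted p = 0.00122). The modifier subunit of glutamate-cysteine ligase, gclm, was at 13.2, 16.4, 14.3, 14.1 and 12.3 CPM in June and 17.9, 20.1, 19.9, 18.1 and 21.9 CPM in October. The log2 change was 0.48 (SE 0.07, edgeR adjusted p = 0.000314) with no overlap of the groups. In controls gclm was also called higher, by 0.29 (edgeR adjusted p = 0.0319), and no difference between the contrasts was shown (edgeR adjusted p = 0.497). The catalytic subunit gclc rose by 0.24, the glutathione synthetase gss by 0.28, the NADPH-producing pgd by 0.28, and the canalicular efflux pump abcc2 by 0.48. The 2 lower genes were the glutathione transferases gstm.1, which fell by 0.40, and gstm.3, which fell by 0.50. The haem oxygenase hmox1a was at 3.30 to 4.54 CPM in June and 3.45 to 5.69 CPM in October and did not pass the test (log2 change 0.11, SE 0.21), nor did gstp1 (-0.03, SE 0.10). The peroxiredoxin prdx1 was at 74.7, 68.7, 64.2, 98.2 and 96.3 CPM in October and 50.05 to 75.5 CPM in June. Only October replicates 4 and 5 lay above all June libraries, and its call (log2 change 0.40, SE 0.12, edgeR adjusted p = 0.036) was lost without either of them, among 10 of the 19 alternatives. The metal-binding metallothionein mt2 was at 32.6, 29.6, 27.9, 27.1 and 26.9 CPM in June and 45.5, 51.4, 47.2, 55.8 and 44.8 CPM in October, a log2 change of 0.77 (SE 0.10, edgeR adjusted p = 0.00012). Controls were at 23.1 to 29.8 CPM of mt2 in June and 25.1 to 40.3 CPM in October, and no difference between the contrasts was called for it.

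The aryl hydrocarbon receptor is a sensor of dioxin-like compounds and polycyclic aromatics. Its list of 17 genes holds the receptor partner arnt2 beside target genes. Of the 17, 2 were higher and 1 lower in October exposed larvae. Either without October replicates 4 and 5 or without replicates 1, 2 and 3, 1 was higher and 1 lower. cyp1a, the usual marker of receptor activation, was at 472, 498, 436, 450 and 420 CPM in June and 517, 521, 454, 453 and 490 CPM in October. The groups overlapped, and the log2 change was 0.10 (SE 0.06, edgeR adjusted p = 0.29). In controls cyp1a was at 47.7 to 57.4 CPM in June and 28.9 to 34.8 CPM in October, a log2 change of -0.76, so that the 2 contrasts differed by 0.86 with an adjusted p = 8.16e-06. The receptor repressor ahrra showed the same layout, at 10.0 to 11.8 CPM in exposed June larvae and 9.02 to 12.1 CPM in exposed October larvae, but at 1.98 to 3.11 and 0.405 to 0.862 CPM in the controls. The exposed contrast was 0.05 (SE 0.11) and the difference from the control contrast 2.15 (SE 0.20), with an adjusted p = 7.05e-06. cyp1b1 changed by 0.15 (SE 0.10) and cyp1c1 by -0.12 (SE 0.05) in exposed larvae, and neither passed the test, although both differed from the control contrast. The exception was cyp1c2, at 18.3, 17.6, 15.8, 16.7 and 16.6 CPM in June and 10.6, 9.69, 10.1, 13.7 and 10.6 CPM in October. It was lower in every October library, by a log2 change of -0.64 (SE 0.10, edgeR adjusted p = 0.000413), and lower in control larvae too, by -0.47. In controls 1 gene of the list was higher and 5 were lower. Over this list the genes called in exposed larvae were cyp1c2, the receptor partner arnt2, higher by 0.22, and foxq1a, higher by 0.27. In controls arnt2 was also called higher, by 0.17, and no difference between the contrasts was shown for it (edgeR adjusted p = 0.751). The edgeR adjusted p of foxq1a was 0.0499 and passed 0.05 in only 6 of 19 alternatives.

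**Figure D3:**
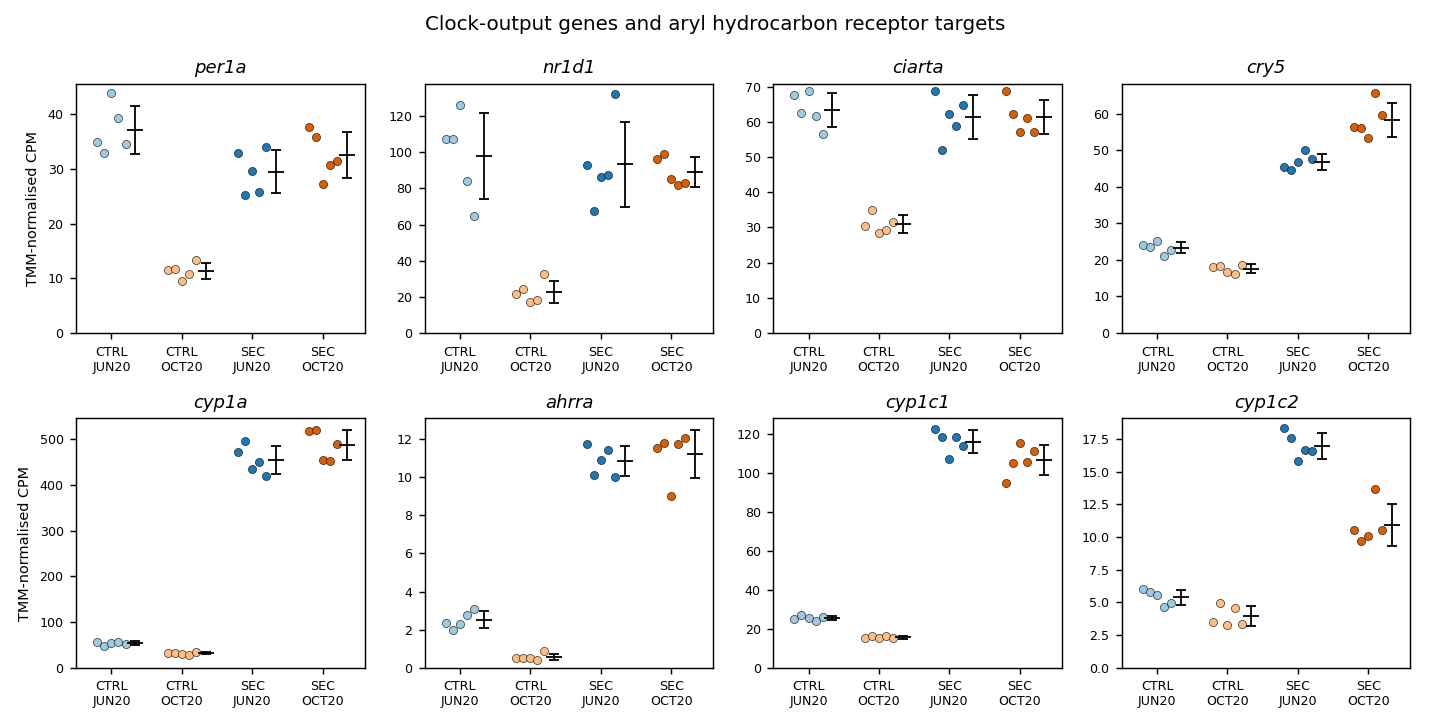
TMM-normalised CPM by library in the 4 groups of 5 libraries (points), with mean and SD (bars), for 4 clock genes (top) and 4 targets of the aryl hydrocarbon receptor (bottom). In per1a, nr1d1, ciarta, cyp1a and ahrra the SEC groups overlap while CTRL OCT20 lies below CTRL JUN20; cyp1c2 is lower in SEC OCT20 than in SEC JUN20.

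Of 10 tested estrogen-responsive genes, 4 were higher and 0 lower in October, with 5 of the 10 changes above 0 and a median of 0.09. In controls 0 were called, but the median was 0.28, and 0 genes of the list differed between the contrasts. cyp19a1b, which encodes the aromatase of radial glia and is an estrogen marker in zebrafish larvae, was at 18.2, 18.1, 20.7, 19.3 and 16.7 CPM in June and 27.2, 22.2, 26.3, 24.9 and 24.5 CPM in October. The groups did not overlap, and the log2 change was 0.43 (SE 0.07, edgeR adjusted p = 0.000493). Controls were at 0.559 to 1.15 CPM with a log2 change of 0.50 that did not pass the test, and no difference between the contrasts was shown (-0.07, SE 0.16). The receptor gene esr1 was at 0.295 to 0.471 CPM in June and 0.545 to 0.869 CPM in October, a change of 0.97 (SE 0.19, edgeR adjusted p = 0.00274). Its change in controls was 0.38, and no difference between the contrasts was shown (edgeR adjusted p = 0.395). The yolk protein gene vtg1 was at 0.0832 to 0.296 CPM in June and 0.0221 to 0.249 CPM in October (log2 change -0.85, SE 0.49, edgeR adjusted p = 0.266). Another yolk protein gene, vtg3, was among the 4 higher members, at means of 0.394 CPM in June and 0.828 CPM in October. Its change was 1.08 (SE 0.34, edgeR adjusted p = 0.0415), beside 0.85 in controls, and the call was lost in 7 of 18 alternatives. The most abundant member was ctsd, for the lysosomal protease cathepsin D, at means of 157.7 CPM in June and 187.9 CPM in October, with a change of 0.25 (SE 0.08) at an edgeR adjusted p = 0.0498. There were 2 higher members without October replicates 4 and 5 and 3 without replicates 1, 2 and 3.

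Clock genes differed in direction between exposed and control larvae for part of their list. Of 14 activators of the clock 6 were higher in October, and of 31 repressors and outputs 11 were higher and 0 lower, with median log2 changes of 0.25 and 0.13. In controls 7 activators were higher, but 3 repressors and outputs were higher and 18 lower, with a median of -0.31 for the latter list. The difference between the contrasts was called for 15 of the 31, all with the higher value in exposed larvae. The repressor per1a was at 32.9, 25.2, 29.6, 25.8 and 34.1 CPM in exposed June larvae and 37.6, 35.8, 27.2, 30.8 and 31.4 CPM in exposed October larvae. These overlap, with a log2 change of 0.14 (SE 0.10, edgeR adjusted p = 0.41), whereas controls went from 33.0 to 43.9 CPM in June to 9.43 to 13.4 CPM in October. The difference was 1.84 (SE 0.15, adjusted p = 2.70e-06), the smallest p of that test among the named genes. nr1d1, the nuclear receptor that represses arntl genes, was at 92.8, 67.6, 86.03, 87.5 and 132 CPM in exposed June larvae and 96.4, 99.0, 85.2, 81.8 and 82.9 CPM in exposed October larvae. Its log2 change was -0.07 (SE 0.19) in exposed and -2.10 in control larvae. ciarta, tefa, dbpa and dbpb likewise had changes of 0.00, 0.02, 0.05 and -0.07 in exposed larvae, with edgeR adjusted p of 0.665 or more, and of -1.03, -0.54, -0.61 and -1.08 in controls. Some members rose in exposed larvae. The light-inducible photolyase gene cry5 was at 45.3, 44.5, 46.7, 50.1 and 47.6 CPM in June and 56.2, 56.1, 53.4, 65.7 and 59.6 CPM in October, a change of 0.31 (SE 0.06, edgeR adjusted p = 0.0014) against -0.41 in controls. per2, also induced by light, rose by 0.28 (SE 0.05) against -0.23, and nr1d2b by 0.21 (SE 0.04) against -0.31. Of the activators, the receptors rorab, rorca and rorcb rose by 0.26, 0.40 and 0.84, npas2 by 0.36 and arntl1a by 0.23, and each of these was also higher in October controls. Among 12 photolyase and light-induced repair genes, cry5 and per2 included, 6 were higher, against 0 higher and 4 lower in controls. In the fit that omits October replicates 4 and 5, 3 activators, 4 repressors or outputs and 2 repair genes were called higher, and in the one that omits replicates 1, 2 and 3 the numbers were 8, 5 and 5.

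Of 35 heat shock chaperones and co-chaperones 17 were lower and 0 higher in October exposed larvae, with a median log2 change of -0.37. The controls gave 15 lower and 1 higher with a median of -0.58, and 1 gene of the list, chordc1a, differed between the contrasts. The Hsp40 gene dnajb1a (ENSDARG00000099383), whose product delivers clients to Hsp70, was at 18.3, 18.3, 18.1, 18.3 and 15.1 CPM in June and 10.25, 9.87, 11.02, 8.90 and 8.91 CPM in October. The groups were well apart, at a log2 change of -0.85 (SE 0.08, edgeR adjusted p = 1.48e-06), and controls changed by -0.98. The inducible Hsp70 gene hsp70.3 was at 43.2, 64.7, 66.4, 55.5 and 20.5 CPM in June and 14.6, 9.62, 11.9, 10.4 and 9.20 CPM in October. June replicate 5 was the lowest June library for it and for hsp70.2, hsp70l, serpinh1b, dnajb1b and dnajb1a. hsp70.3 changed by -2.17 (SE 0.27, edgeR adjusted p = 8.63e-05) and hsp70.2 by -2.01 (SE 0.27, edgeR adjusted p = 0.000166). The Hsp70 genes are near-identical copies, and no source used here says how reads shared among them were counted, so their separate values are uncertain. serpinh1b, the collagen chaperone Hsp47, was at 154, 201, 176, 145 and 69.5 CPM in June and 39.5, 39.6, 33.4, 22.3 and 18.8 CPM in October. This was the lowest log2 change among the called genes by the rule for named genes, at -2.28 (SE 0.32, edgeR adjusted p = 0.000285), beside -1.93 in controls. The constitutive chaperones hspa8 and hsp90ab1, at means of 4592 and 3585 CPM in June, changed by 0.02 (SE 0.04) and 0.04 (SE 0.03) and did not pass the test. On leaving out October replicates 4 and 5, 11 genes of the list were lower, and on leaving out replicates 1, 2 and 3, 13 were.

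**Figure D4:**
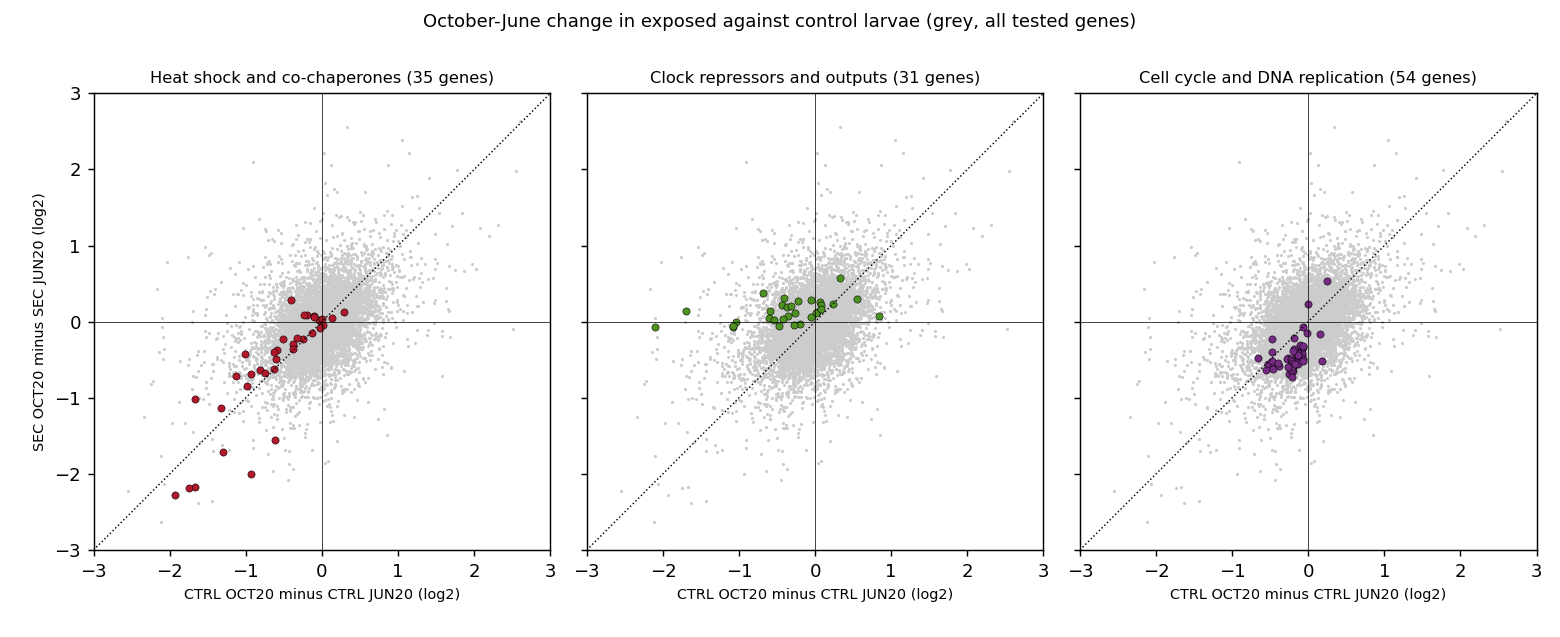
October-June log2 change of each tested gene in control larvae (horizontal axis) and exposed larvae (vertical axis), with all genes in grey, 3 lists in colour and the line of equal change dotted; 7 genes lie outside the plotted range. Heat shock genes follow the line, clock repressors and outputs lie near 0 on the vertical axis and mostly below 0 on the horizontal one, and cell cycle genes are mostly below 0 on both.

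Of 54 tested genes of mitosis and DNA replication, 19 were lower and 0 higher in October, with a median log2 change of -0.50, beside 1 lower in controls with a median of -0.19. The centromere protein gene cenpf was at 36.2, 51.8, 47.3, 44.9 and 38.6 CPM in June and 27.9, 29.9, 27.6, 30.8 and 28.6 CPM in October. The groups did not overlap, and the change was -0.60 (SE 0.12, edgeR adjusted p = 0.004). The mitotic kinesin kif20a, at 11.5 to 14.7 CPM in June and 6.90 to 9.26 CPM in October, changed by -0.73 (SE 0.15), the kinase aurka by -0.69 (SE 0.16), the proliferation marker mki67 by -0.51 (SE 0.13) and the topoisomerase top2a by -0.50 (SE 0.14). The replication clamp pcna, at means of 89.6 and 67.8 CPM, did not pass the test (log2 change -0.40, SE 0.19). No gene of the list differed between the exposed and control contrasts, and the CTRL OCT20 libraries spread widely, from 1005 to 1884 CPM summed over the list. The count depended on single libraries, falling to 1 without October replicates 4 and 5 (median -0.42), to 4 without October replicates 1, 2 and 3 (median -0.59), and ranging from 5 to 24 when 1 library was left out. In whole larvae, fewer cells of a type and less RNA per cell cannot be told apart, for these and all genes.

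Of 51 genes of enterocytes, the absorptive cells of the intestine, 14 were lower and 0 higher in October, beside 2 lower in controls. The sodium-glucose transporter slc5a1 was at 74.9, 79.7, 82.0, 69.5 and 87.5 CPM in June and 54.5, 54.4, 45.5, 45.1 and 45.0 CPM in October. The groups did not overlap, the change was -0.69 (SE 0.09, edgeR adjusted p = 8.57e-05), and the difference from the control contrast, which was -0.11, had an adjusted p = 0.0266. lct, a lactase-family brush border hydrolase, was at 34.8, 46.9, 46.2, 40.9 and 46.5 CPM in June and 24.1, 19.4, 15.4, 11.9 and 13.8 CPM in October, a change of -1.35 (SE 0.19) against -0.19 in controls, with an adjusted p = 0.0353 for the difference. The fatty acid binding protein fabp2 fell by 0.55, the peptide transporter slc15a1a by 1.01, the brush border protein vil1 by 0.50 and the fatty acid transporter cd36 by 0.36. Outside that list, slc34a2a, a sodium-phosphate cotransporter, was at 6.96, 18.3, 24.8, 20.8 and 29.7 CPM in June and 6.10, 4.39, 6.72, 3.09 and 3.74 CPM in October. June replicate 1 lay close to the October libraries, and the change was -2.08 (SE 0.29, edgeR adjusted p = 0.000263). enpp7.1, whose mammalian relative is an intestinal sphingomyelinase, changed by -1.21 (SE 0.16). In controls slc34a2a changed by -0.44 and enpp7.1 by -0.33. No difference between the contrasts was shown for either (edgeR adjusted p = 0.0503 and 0.053). The median over the enterocyte list was -0.13 in exposed larvae and -0.07 in controls. Of its members, only slc5a1 and lct differed between the contrasts. There were 6 lower members without October replicates 4 and 5 (median -0.02) and 19 without replicates 1, 2 and 3 (median -0.28).

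Epidermal genes gave 17 lower and 5 higher members of 69, with a median of -0.10, beside 7 lower and 2 higher in controls. There were 12 lower and 2 higher members without October replicates 4 and 5, and 17 and 4 without replicates 1, 2 and 3. The annexin anxa1c was at 18.8, 19.9, 30.9, 35.0 and 20.8 CPM in June and 10.6, 12.3, 10.3, 8.84 and 8.38 CPM in October. The groups did not overlap, while the 10 control libraries lay between 19.1 and 26.0 CPM. The change was -1.32 (SE 0.16, edgeR adjusted p = 5.02e-05), and the difference from controls was -1.29 with an adjusted p = 0.00383. Its relative anxa1d fell by 0.89, the cornified envelope protein gene ppl, for periplakin, by 0.37, the keratin krt17 by 0.61 and the mucins muc5.1 and muc5.2 by 0.65 and 0.93. The 5 higher members included the tight junction genes cldnb (0.39) and cldne (0.26), and krt15 did not pass the test (0.01, SE 0.09). Of 44 genes of ion-transporting skin cells 10 were higher and 2 lower, with 9 higher without October replicates 4 and 5 and 5 higher without replicates 1, 2 and 3. In controls 1 of them was higher and 2 were lower. The sodium pump subunit atp1a1a.3 was at 72.2, 75.7, 70.19, 76.2 and 78.8 CPM in June and 101, 96.4, 92.6, 85.9 and 86.3 CPM in October, a change of 0.31 (SE 0.05, edgeR adjusted p = 0.000316) against -0.01 in controls, with an adjusted p = 0.0219 for the difference. The sodium-chloride cotransporter slc12a10.2 rose by 0.36 and the sodium pump subunit atp1b1a by 0.28, and of the lower genes the ammonia transporter rhcga changed by -1.62 in exposed and -1.31 in control larvae.

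Among neuron, glial and lens genes, more passed the test as higher than as lower, unlike photoreceptor genes. Of 72 neuron genes 12 were higher and 1 lower (median 0.08), of 25 glia and myelin genes 8 were higher and 0 lower (median 0.12), and of 54 lens genes 12 were higher and 1 lower (median 0.15). In controls 2 neuron genes were higher and 0 lower (median -0.01), and 0 glia and myelin genes were called (median 0.04). Of the lens genes 2 were higher and 0 lower in controls, with a median of 0.14. Photoreceptor and phototransduction genes gave 6 higher and 8 lower of 66 (median 0.05), beside 3 higher and 5 lower in controls (median 0.07). The glutamine synthetase glula, of astroglia and of several other tissues, was at 306, 295, 329, 337 and 363 CPM in June and 471, 471, 489, 500 and 550 CPM in October. It changed by 0.60 (SE 0.06, edgeR adjusted p = 6.60e-06) against 0.06 in controls, with an adjusted p = 0.00283 for the difference. The myelin genes mbpa, plp1b and mpz rose by 0.29, 0.36 and 0.38. The neuronal transcription factor neurod1, at 87.5 to 122 CPM in June and 139 to 152 CPM in October, rose by 0.49 (SE 0.06, edgeR adjusted p = 5.83e-05) and was also higher in October controls, by 0.39. The lens chaperone cryaa, at 50.6 to 69.6 CPM in June and 73.2 to 87.7 CPM in October, rose by 0.45 (SE 0.10). The retinal homeobox gene rx2 went the other way, at 4.02 to 5.70 CPM in June and 2.54 to 3.37 CPM in October, a change of -0.63 (SE 0.12) against 0.31 in controls, with an adjusted p = 0.00312 for the difference. Without October replicates 4 and 5, 5 neuron, 5 glia and 9 lens genes were called higher, and without October replicates 1, 2 and 3 the numbers were 7, 6 and 3. The photoreceptor list gave 0 higher and 2 lower without replicates 4 and 5, and 6 and 11 without replicates 1, 2 and 3.

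**Figure D5:**
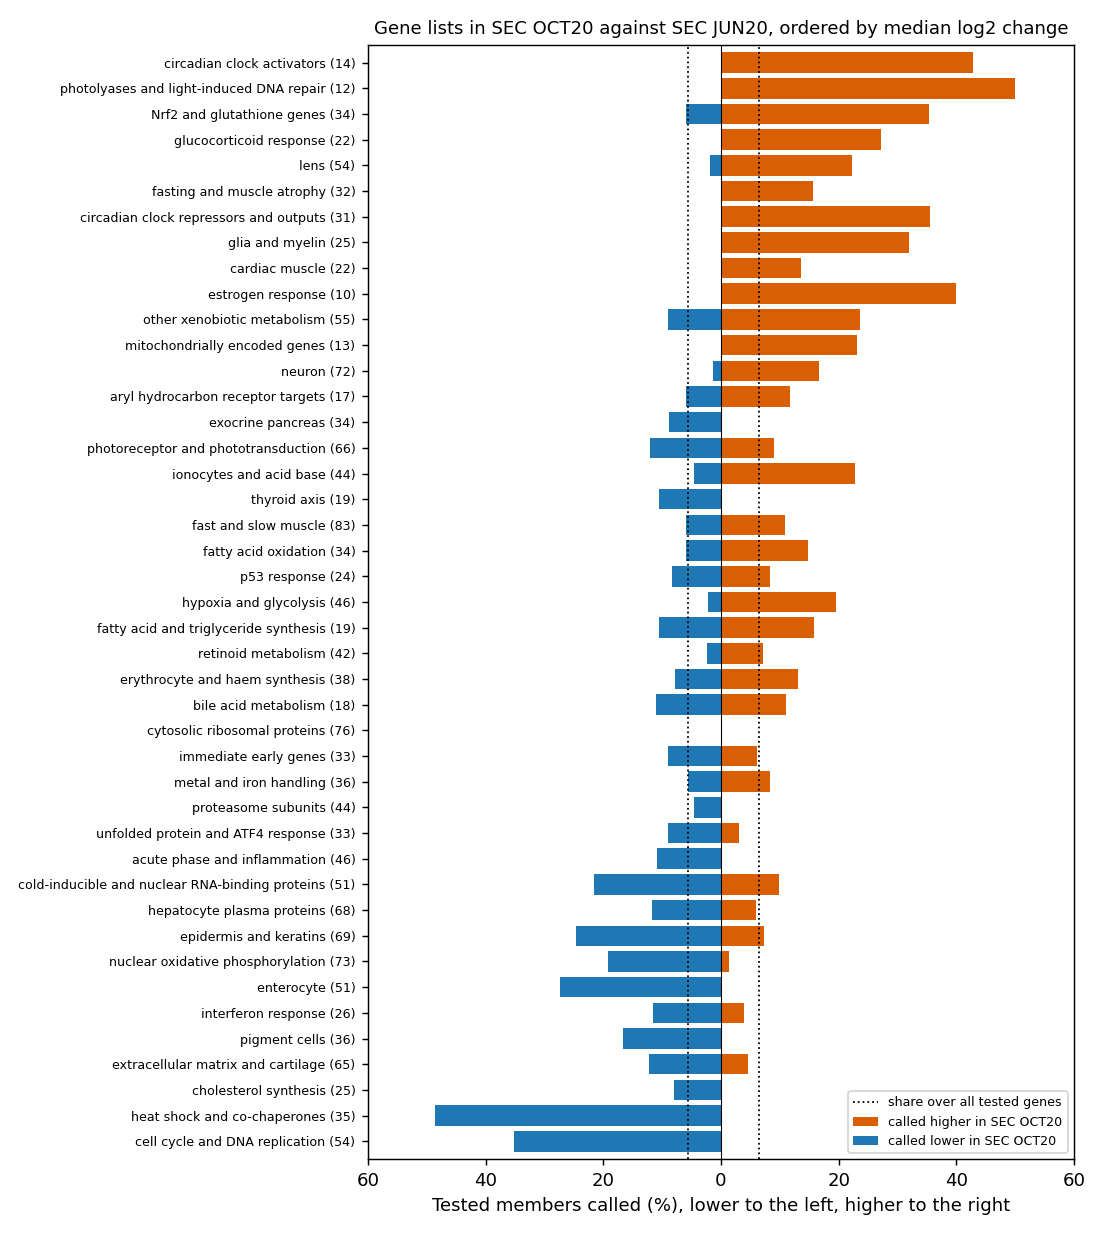
Share of tested members of each of the 43 gene lists (number tested in brackets) called higher (right) or lower (left) in SEC OCT20 against SEC JUN20, with dotted lines at the shares over all tested genes, 6.41% higher and 5.58% lower. Lists are ordered by median log2 change, from clock activators (0.25) to cell cycle and DNA replication (-0.50).

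Of 46 hypoxia and glycolysis genes 9 were higher and 1 lower, at a median of 0.00, with 7 and 2 without October replicates 4 and 5 and 9 and 2 without replicates 1, 2 and 3. In controls 1 was higher and 6 were lower, at a median of -0.07. pfkfb4b, whose product sets the level of fructose 2,6-bisphosphate, was at 53.1, 54.8, 61.6, 58.1 and 83.4 CPM in June and 119, 140, 121, 124 and 168 CPM in October. The groups did not overlap, and the change was 1.11 (SE 0.16, edgeR adjusted p = 0.000304) against 0.15 in controls, with an adjusted p = 0.0453 for the difference. ndrg1b rose by 1.13 (SE 0.16), from 29.2 to 49.7 CPM in June to 71.8 to 98.8 CPM in October, and the hypoxia-inducible factor genes hif1al and epas1a rose by 0.35 and 0.30. Of 34 fatty acid oxidation genes 5 were higher and 2 lower (median 0.00). The counts were 3 and 1 without October replicates 4 and 5, and 3 and 2 without replicates 1, 2 and 3. In controls 0 were higher and 1 was lower (median -0.08). The very-long-chain acyl-CoA dehydrogenase acadvl was at 319 to 334 CPM in June and 386 to 408 CPM in October. It rose by 0.28 (SE 0.03, edgeR adjusted p = 3.26e-05) against -0.04 in controls. Of the lower members, ehhadh changed by -0.48 (SE 0.09, edgeR adjusted p = 0.00132) against -0.05 in controls. The lipid carrier gene apoeb, at 561 to 584 CPM in June and 698 to 859 CPM in October, rose by 0.46 (SE 0.06, edgeR adjusted p = 6.57e-05) against -0.03 in controls. Of 73 nuclear genes of oxidative phosphorylation 14 were lower and 1 higher (median -0.11), and 1 was lower without October replicates 4 and 5 and 10 without replicates 1, 2 and 3. In controls 2 of the 73 were lower and 0 higher (median -0.08). Of 13 mitochondrially encoded genes 3 were higher (1 without October replicates 1, 2 and 3) and 0 lower, beside 0 called in controls. Among the 3 was mt-co1, with a change of 0.28 (SE 0.04, edgeR adjusted p = 0.000327), beside October libraries whose share of mitochondrial ribosomal RNA was also higher. Of the starvation and stress hormone markers, 5 of 32 fasting and atrophy genes and 6 of 22 glucocorticoid-responsive genes were higher and none lower. The fasting genes called were 15.6% of their list, beside 12% called over all tested genes. In controls 0 fasting genes were called, and 2 glucocorticoid-responsive genes were higher and 1 lower. The hormone-inactivating enzyme gene hsd20b2, at 24.6 to 35.3 CPM in June and 40.5 to 48.4 CPM in October, rose by 0.63 (SE 0.08, edgeR adjusted p = 3.41e-05), the kinase gene sgk1 by 0.61 and the insulin-signalling factor foxo1a by 0.49 (SE 0.11). fkbp5, at 72.2 to 184 CPM in June and 102 to 172 CPM in October, did not pass the test, nor did the atrophy markers fbxo32 (0.42, SE 0.30) and trim63a (0.32, SE 0.30). The growth factor binding protein gene igfbp1b was at 78.0 to 94.2 CPM in June and 110 to 192 CPM in October without overlap. Its change of 0.76 (SE 0.35) gave an edgeR adjusted p = 0.16 in the shared fit, which takes the spread from all groups. The CTRL OCT20 libraries lay between 36.4 and 236 CPM for igfbp1b. With the exposed groups fitted alone, igfbp1b passed the test. Without October replicates 4 and 5, 0 of the 32 fasting genes and 2 of the 22 glucocorticoid-responsive genes were called, and without replicates 1, 2 and 3, 4 and 5 were.

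None of 76 cytosolic ribosomal protein genes was called, and their changes lay between -0.12 and 0.11. Of 51 cold-inducible and nuclear RNA-binding protein genes 5 were higher and 11 lower. The cold-inducible cirbpb, at 969, 903, 906, 905 and 959 CPM in June and 1091, 1081, 1121, 1099 and 1201 CPM in October, rose by 0.27 (SE 0.04, edgeR adjusted p = 0.000133) and by 0.38 in controls. The nuclear matrix protein gene safb, at 160 to 179 CPM in June and 115 to 134 CPM in October, changed by -0.40 (SE 0.05, edgeR adjusted p = 8.63e-05) and by -0.43 in controls. Of 36 pigment cell genes 6 were lower, among them the purine gene pnp4a of iridophores at -0.76 (SE 0.15). Of 46 acute phase and inflammation genes 5 were lower, among them the phagocyte lysozyme gene lyz, at 16.9 to 20.1 CPM in June and 10.3 to 15.4 CPM in October, with a change of -0.47 (SE 0.09) against 0.11 in controls and an adjusted p = 0.0232 for the difference. Of 68 hepatocyte plasma protein genes 4 were higher and 8 lower, with the complement genes c9 and c8b at -0.65 and -0.57, while the liver fatty acid binding protein fabp10a did not pass the test (0.02, SE 0.10). Immediate early genes gave 2 higher and 3 lower of 33, cholesterol synthesis 0 and 2 of 25, the proteasome 0 and 2 of 44, extracellular matrix and cartilage 3 and 8 of 65, retinoid metabolism 3 and 1 of 42 and the thyroid axis 0 and 2 of 19. In controls the immediate early genes gave 0 higher and 10 lower, the proteasome 8 and 0 and the thyroid axis 1 and 1. The matrix genes gave 0 and 1 there, with a median of -0.16 against -0.21 in exposed larvae. The RNA-binding protein genes gave 4 and 3 in controls, pigment cell genes 2 and 0, acute phase genes 0 and 2 and hepatocyte genes 0 and 1. The ribosomal, cholesterol and retinoid lists gave 0 and 0. In exposed larvae the share called was 10.9% for the acute phase list, 10.5% for the thyroid axis and 9.52% for retinoid metabolism. It was 8% for cholesterol synthesis and 4.55% for the proteasome, and all 5 shares lay below the 12% over all tested genes. The median of the cholesterol list was -0.26, with 3 of the 25 changes above 0, against a median of 0.05 in controls. No gene of that list differed between the contrasts. Without October replicates 4 and 5, 1 RNA-binding protein gene, 2 pigment cell genes, 1 matrix gene and 0 hepatocyte plasma protein genes were lower, and without replicates 1, 2 and 3 the numbers were 10, 3, 10 and 6.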

How the data were processed

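Whole-larva mRNA was sequenced from 20 pools as stranded libraries with unique molecular identifiers, per the labels' protocols. The deposited values are raw counts per gene. Per the submitters' processing notes, CASAVA, STAR 2.7.8a, SAMtools, DESeq2 (named as version 3.17) and genome build GRCz11 were used. Not given in the sources used here: the counting tool, the annotation and any collapse of identifiers. Genes carry symbols without coordinates or sequence, since no genome of that build was used.

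Each of the 20 per-sample files equalled its column of the series table, and no libraries held identical counts. Genes were filtered with edgeR's filterByExpr (minimum count 10), leaving 23121 of 32520, and scaled with TMM. All 20 libraries were fitted with edgeR 4.0.16 (R 4.3.3), a mean per group and the robust quasi-likelihood F test, for the October-June contrast in exposed larvae, the same in controls, and the difference between them; the shared fit takes the spread from all groups. P-values were Benjamini-Hochberg adjusted over all tested genes, with a threshold of 0.05. DESeq2 1.42.0 served as an alternative. The scripts were tested on simulated data.

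Named genes were the 12 higher and 12 lower with the smallest p, the 6 highest and 6 lowest changes (mean of at least 1 CPM), up to 3 called genes of each list, a set of indicator genes, and the 5 of each sign with the smallest p in the difference and in both contrasts; further members of the lists are named as examples, chosen after their values were seen. The values of 1 named gene are not reported here. Symbols shared by several identifiers were not interpreted. The 43 lists are described by counts and medians alone. The comparison, the lists and the indicators were chosen with earlier results of these data known. Depth ran from 28832858 to 59922353 counts a library, and with 5 pools a group the standard errors hold both counting error and the spread between pools.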

Additional observations from a re-analysis of the deposited data

Results flagged for a closer look

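Single pools lay far from the other 4 of their group in 23 gene and group combinations among the named genes, judged by the gap to the nearest pool over the range of the group. The check covered the 2 exposed groups for each of the named genes, 173 with the 1 not reported. By chance about 1 such group in 20 is flagged. Values are TMM-normalised CPM. June replicate 5 was the distant pool 7 times, with slc16a9b at 14.5, slc16a6b at 15.3, crhbp at 16.9 and pfkfb4b at 83.4 above the other June pools, and dnajb1a at 15.1, hspbp1 at 10.24 and hsp70.2 at 17.3 below them. October replicate 5 was the highest pool for nat8l at 241, slc16a6b at 57.0 and ptp4a1 at 165. June replicate 1 was high for arf4b at 3.86 and low for shmt2 at 38.4 and mep1a.2 at 17.2. October replicate 1 was low for trim35-30 at 1.36 and high for me1 at 30.3 and impdh1b at 39.9. October replicate 4 was high for cyp1c2 at 13.7 and xpc at 66.9. October replicate 3 was high for zgc:92590 at 8.46 and low for ahrra at 9.02. June replicate 2 was high for col16a1 at 79.1 and slc16a10 at 46.0, and October replicate 2 was low for glra1 at 80.1. The calls of arf4b and impdh1b in exposed larvae were lost in 8 and 15 of 19 alternatives.

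For 42 named genes the October-June change differed between exposed and control larvae, with an adjusted p under 0.05 in edgeR's test of the difference itself. There were 173 named genes with the 1 not reported, and over all 23121 tested genes 239 (1.03%) passed that test. Named genes were picked in part by the smallest p of this test or of the exposed contrast, so their count is raised by that choice. Values are the exposed minus the control log2 change. Transport and metabolism genes with the higher value in exposed larvae were cyp2k18 (2.19), slc16a6b (1.78), slc16a9b (1.505), abcc12 (1.35), the bile salt pump abcb11a (1.09), the malic enzyme me1 (0.98), pfkfb4b (0.96), oaz2b (0.62), porb (0.56), slc4a2a (0.55), lrrc8db (0.54), ucp2 (0.51), abat (0.48), nat8l (0.35) and acadvl (0.32). Clock and light-responsive genes were nr1d1 (2.04), per1a (1.84), ciarta (1.03), cry5 (0.72), nr1d2b (0.52), the repair gene xpc (0.51) and per2 (0.51). Targets of the aryl hydrocarbon receptor were ahrra (2.15), cyp1a (0.86), cyp1b1 (0.63) and cyp1c1 (0.58). Others were ppdpfb (0.57), glula (0.55), hebp2 (0.53), ptgdsb.2 (0.49), apoeb (0.49), hsd20b2 (0.47) and atp1a1a.3 (0.32). The lower value in exposed larvae was found for anxa1c (-1.29), lct (-1.16), rx2 (-0.94), the membrane-shaping baiap2l1a (-0.61), faah2b (-0.59), slc5a1 (-0.58), lyz (-0.57), the basement membrane gene nid1a (-0.39) and impdh1b (-0.35).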

How the results depend on the processing

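No called named gene changed sign, while some that did not pass the test, such as nr1d1 (-0.17 to 0.09), lay on both sides of 0. Of 157 called named genes, 95 were called in all alternatives that tested them and 62 lost the call in at least 1. With 1 library left out, the exposed contrast ranged from 1692 calls without October replicate 5 to 2595 (941 to 1359 higher and 751 to 1236 lower), with 1746 without June replicate 2 and 1766 without June replicate 3. The control contrast ranged from 704 calls without CTRL OCT20 replicate 1 to 2410 without CTRL OCT20 replicate 2 (306 to 1282 higher, 398 to 1128 lower), the difference from 134 without CTRL JUN20 replicate 3 to 330 without CTRL OCT20 replicate 5 (110 to 238 higher, 24 to 102 lower), and the genes called in both in the same direction from 286 to 805. Without October replicates 4 and 5 there were 1039 calls (613 higher, 426 lower), 35 lower genes in the difference and 232 in both; this fit has 3 October libraries. DESeq2 called 3539 genes in exposed larvae (1936 higher, 1603 lower) and 2076 in controls (1124 higher). It called 607 in the difference (414 higher, 193 lower) and 750 in both. Library totals alone gave 796 higher and 2771 lower genes in exposed larvae and 135 lower in the difference. With the exposed groups fitted alone, 3592 genes were called in them (1904 higher, 1688 lower). With the control groups fitted alone, 565 genes were called in them (240 higher, 325 lower). The difference could not be had from these separate fits. For these changes with the processing the cause was not tested, beyond the fewer samples of the fits that leave libraries out.

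With the replicate number as a block, 2825 genes were called in exposed larvae (1497 higher, 1328 lower), 1277 in controls, 215 in the difference and 473 in both. Same-numbered June and October libraries had deviations that correlated at -0.01, 0.02, 0.03, -0.01 and 0.12. Differently numbered libraries correlated at -0.086 to 0.059. Whether the numbers pair the samples cannot be told from these values, and the labels do not say. Depth was at least 32745188 counts a library in exposed larvae; values under 1 CPM, such as those of esr1, vtg1 and itln3, rest on few counts.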
